A study of Homo sapiens with 8 samples.

Results

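The genes described here are 38 genes of glycolysis and of the response to low oxygen, of the 37441 genes in the deposited count table. Their symbols were fixed as a list, and each was matched to the Ensembl identifier that carries it. The first 18 genes, from the glucose transporter gene SLC2A1 to the lactate dehydrogenase gene LDHA, are called glycolytic genes below, and the other 20 are called other HIF target genes. The RNA came from 2 non-small cell lung cancer lines, NCI-H1581 and NCI-H1703, which are sensitive to inhibitors of fibroblast growth factor receptors (FGFR), and from a resistant variant of each, named NCI-H1581R and NCI-H1703R. Resistance had been raised by months of culture with CPL304110, an FGFR inhibitor, starting at 50 nM and ending at 2.5 µM for NCI-H1581R and 5 µM for NCI-H1703R. All cells received fresh medium 24 h before harvest, and the labels do not say whether the inhibitor was in it or whether the resistant cells are single clones. The lines were kept in different media, DMEM/F12 for NCI-H1581 and RPMI 1640 for NCI-H1703, and no labelled condition lowered the oxygen. With 2 replicates of each of the 4 variants there were 8 libraries, of 33800389 to 40031710 counts each.

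Glycolysis breaks glucose down to pyruvate. In the first, energy-consuming steps hexokinases, phosphofructokinases and aldolases act on the sugar, and in the later, energy-yielding steps triose phosphates are turned into pyruvate, which LDHA converts to lactate. Many of these genes are transcribed more when the hypoxia-inducible factors (HIFs) accumulate. HIFs are pairs of an oxygen-labile alpha subunit (HIF1A or EPAS1) and ARNT. When oxygen is present, prolyl hydroxylases of the EGLN family mark the alpha subunit for the VHL ubiquitin ligase. HIFs bind DNA at a short core, the hypoxia response element, and among their targets are genes for acid handling, blood vessel growth, collagen modification, mitophagy and the EGLN enzymes themselves. Growth factor signalling is also known to raise HIF1A and glycolysis in cells with ample oxygen.

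The core letters of the hypoxia response element, ACGTG or GCGTG on either strand, were looked for in the 250 bases before each transcription start that RefSeq gives for GRCh38.p14. RefSeq windows were found for 35 of the 38 genes, 64 windows in all. The core stood in 41 of the 64 windows (64.1%), in 19 of 37 windows of glycolytic genes (51.4%) and in 22 of 27 windows of other HIF target genes (81.5%). Of all 35116 windows 43.2% held it, and of the 17886 windows of tested genes matched by symbol 52.9% did. Counted by gene, since genes such as HK1 and PFKM have several windows, the core stood in at least 1 window of 82.4% of glycolytic genes, 88.9% of other HIF target genes and 62.5% of tested genes. That share rises with the number of windows per gene, so it favours genes with several. There were 37 windows for 17 glycolytic genes, 27 for 18 other HIF target genes and 17886 for 12291 tested genes. Those 5 letters are short and frequent, so a match describes the letters and is not a binding site. The sequences below belong to the genes whose RNA changed over 4-fold with resistance in either line, and they are shown because their promoters are the most direct place to look for the core. They are the stretches of each window that no annotated exon overlaps, written 5′ to 3′ on the strand of the gene in lower case, with the core letters in capitals (CACGT and CACGC are the same cores on the opposite strand, and both strands of CACGTG match). The window of ENO2 lay wholly within exons of that gene and is not printed.
CA12, chr15:63381847-63382096, minus strand: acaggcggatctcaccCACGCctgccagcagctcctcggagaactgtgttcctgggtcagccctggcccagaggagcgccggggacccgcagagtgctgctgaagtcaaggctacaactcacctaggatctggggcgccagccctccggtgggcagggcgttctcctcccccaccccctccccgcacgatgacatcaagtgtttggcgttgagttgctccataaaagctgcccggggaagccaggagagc
ALDOC, chr17:28576949-28577145, minus strand: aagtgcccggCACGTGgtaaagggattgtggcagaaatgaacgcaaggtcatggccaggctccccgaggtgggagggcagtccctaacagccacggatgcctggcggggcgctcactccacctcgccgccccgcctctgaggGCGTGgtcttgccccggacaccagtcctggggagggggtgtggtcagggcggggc
ANGPTL4, chr19:8363905-8364154, plus strand: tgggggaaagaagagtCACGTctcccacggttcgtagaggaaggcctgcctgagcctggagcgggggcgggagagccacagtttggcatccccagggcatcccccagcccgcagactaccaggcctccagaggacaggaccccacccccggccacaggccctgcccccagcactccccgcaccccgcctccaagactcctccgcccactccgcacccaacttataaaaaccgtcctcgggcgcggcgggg
ADM, chr11:10304878-10305072, plus strand: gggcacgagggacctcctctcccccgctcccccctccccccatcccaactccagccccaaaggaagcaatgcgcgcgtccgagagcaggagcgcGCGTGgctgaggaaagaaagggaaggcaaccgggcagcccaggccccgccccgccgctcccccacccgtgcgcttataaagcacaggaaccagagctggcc
STC2, chr5:173328448-173328664, minus strand: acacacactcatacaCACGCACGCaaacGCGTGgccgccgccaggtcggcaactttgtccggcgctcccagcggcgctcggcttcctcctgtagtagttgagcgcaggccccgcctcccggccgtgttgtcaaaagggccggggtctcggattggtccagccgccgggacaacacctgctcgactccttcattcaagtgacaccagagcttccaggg
EGLN3, chr14:33951082-33951324, minus strand: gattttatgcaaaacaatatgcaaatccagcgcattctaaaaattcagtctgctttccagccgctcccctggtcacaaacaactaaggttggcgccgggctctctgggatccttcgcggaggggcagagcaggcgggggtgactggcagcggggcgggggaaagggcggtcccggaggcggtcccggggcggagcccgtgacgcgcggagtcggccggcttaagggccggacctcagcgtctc
Over the full windows, the core was found 5 times before ALDOC, 3 times before STC2 and 1 time each before CA12, ANGPTL4, ADM and ENO2. It was not found in the window of EGLN3, which says only that these letters are not in that window.

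Some facts of the whole series bear on these genes. A gene was tested when its counts added up to 10 or more across all libraries, which left out 2 members of 38 and kept 36: CA9, a carbonic anhydrase gene widely used as a marker of low oxygen, had 1 count in all 8 libraries together, and LOX, the collagen cross-linking enzyme lysyl oxidase, had 6 and 3 counts in the libraries of NCI-H1581R and 0 elsewhere. In NCI-H1581R the second replicate was lower than the first for 7 of 7 enzymes of the later steps of glycolysis, by a median of 0.61 on the log2 scale, while in NCI-H1703R it was higher for 7 of 7 by a median of 0.27. The difference between the replicates of NCI-H1581R rose with transcript length across 12469 genes (Spearman rho = 0.43, genes not being independent), against -0.18 in NCI-H1703R. The part of transcript length in the results was not tested. Summed over 6 epithelial markers, the level was 15.7 to 23.3 CPM (counts scaled to a library of 1000000) in the NCI-H1581 pair, 77.8 and 78.4 CPM in NCI-H1703 and 10 and 11.4 CPM in NCI-H1703R, where KRT18, going from 64.3 and 65.4 CPM to 2.88 and 2.48 CPM, made up nearly all of the gap. For 5 squamous markers the sums were 8.34 and 7.77 CPM in NCI-H1581, 34.6 and 39.2 CPM in NCI-H1581R, 38.3 and 38.6 CPM in NCI-H1703 and 1.01 and 1.37 CPM in NCI-H1703R. Of the 4 squamous markers tested 2 were called higher in NCI-H1581R and 1 lower in NCI-H1703R, where log2 fold changes ran from -6.62 to 0.37. For 3 lung adenocarcinoma markers the sums were 15.6 and 17.5 CPM in NCI-H1581 and 41.5 and 61.5 CPM in NCI-H1581R. They were 1.96 to 2.6 CPM in the NCI-H1703 pair. Of 4 fibroblast marker genes 3 fell in NCI-H1581R, and the sum of the 4 went from 209.7 and 208.7 CPM to 23.6 and 35 CPM. In the NCI-H1703 libraries the same sum was 1080 to 1303 CPM, nearly all of it from PDGFRA. The part of these markers in the results was not tested. Leukocyte and endothelial markers summed to at most 2.46 CPM in any library. The basal keratin gene KRT5 had 35 to 47 counts in each replicate 2 library and 0 or 1 in each replicate 1 library.

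The comparison of NCI-H1581R with NCI-H1581 asks how RNA of these genes differed once resistance had been selected. CA12, a membrane-bound carbonic anhydrase, fell 24.6-fold, ALDOC, the brain-type aldolase, 12.2-fold, ANGPTL4, a secreted inhibitor of lipoprotein lipase, 8.86-fold and ADM, the precursor of the vasodilator adrenomedullin, 8.01-fold, while STC2, a secreted glycoprotein, rose 4.36-fold and SLC2A3, the high-affinity glucose transporter GLUT3, 3.66-fold. None of the abundant enzymes of the later steps of glycolysis was called. Of 2413 genes with a mean of at least 100 CPM over all 8 libraries, 13.6% were called. In bulk RNA fewer cells of a kind and less RNA per cell cannot be told apart. In all, 13 of the 36 tested genes passed the threshold of an adjusted p under 0.1 (Benjamini-Hochberg, from the quasi-likelihood test of edgeR), 4 being higher and 9 lower in the resistant cells. Over all 18203 genes tested 15.1% passed, 7.63% higher and 7.44% lower.

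Among the glycolytic genes 3 rose, 3 fell and 12 did not pass. SLC2A3 (ENSG00000059804, chr12:7919230-8019007 in GRCh38) measured 104 and 94 CPM in the libraries of NCI-H1581 and 403 and 315 CPM in those of NCI-H1581R, a log2 fold change of 1.87 ± 0.19 (SE) with an adjusted p of 0.0018. Both resistant libraries stood far above both sensitive ones. SLC2A14, a nearly identical neighbour of SLC2A3 that could share its reads, had 0 to 132 counts per library, at most 1.58% of those of SLC2A3. SLC2A1, the more common transporter GLUT1, measured 39.8 and 47.3 CPM in the sensitive and 51 and 36.8 CPM in the resistant libraries, so its groups overlapped.

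Of the enzymes that commit glucose to the pathway, HK1, the hexokinase of most tissues, went from 150 and 142 CPM to 102 and 83.3 CPM (log2 fold change -0.64 ± 0.17, adjusted p = 0.0692). HK2, the inducible hexokinase (ENSG00000159399, chr2:74834127-74893359), measured 21.4 and 29.7 CPM in NCI-H1581 and 30.1 and 33.4 CPM in NCI-H1581R, and the difference did not pass (adjusted p = 0.458). The phosphofructokinase isozymes moved apart. PFKM, the muscle form, was at 85.2 and 70.7 CPM and then at 138 and 140 CPM, a rise of 0.84 ± 0.17 on the log2 scale (adjusted p = 0.0245). PFKP, the platelet form, was at 245 and 225 CPM and then at 136 and 135 CPM, a log2 fold change of -0.79 ± 0.16 (adjusted p = 0.0258). For both isozymes no resistant library overlapped a sensitive one, and the liver form PFKL stayed between 172 and 206 CPM in all 4 libraries. Part of the PFKM transcript lies opposite SENP1, and without stated strandedness reads shared by overlapping genes cannot be told apart.

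ALDOC went from 40.9 and 31.9 CPM down to 2.98 and 2.92 CPM, a log2 fold change of -3.61 ± 0.24 (adjusted p = 0.000313). ALDOA, the main aldolase of these cells, measured 152 and 129 CPM against 133 and 102 CPM and did not pass (adjusted p = 0.497). ENO2, the neuron-specific enolase and a marker of neuroendocrine tumours (ENSG00000111674, chr12:6913745-6923698), measured 79.5 and 67.2 CPM against 114 and 118 CPM, a log2 fold change of 0.67 ± 0.16 (adjusted p = 0.0517). Thus for aldolase and enolase the tissue-restricted isozyme passed the test, in opposite directions, and the ubiquitous isozyme did not. Without the first or without the second library of NCI-H1581 the calls of HK1, PFKM, PFKP and ENO2 were lost. Fewer members were called with either of these left out, and more without the first library of NCI-H1581R. Calls over all genes tested moved the same way in these fits.

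Among the other HIF target genes 1 rose, 6 fell and 11 did not pass. CA12, which helps to keep the pH of cells that export acid, measured 22.8 and 21.1 CPM in the sensitive and 0.824 and 0.94 CPM in the resistant libraries (log2 fold change -4.62 ± 0.28, adjusted p = 0.000222). SLC16A3, the lactate exporter MCT4 (ENSG00000141526, chr17:82217934-82261129), measured 53.3 and 39.6 CPM and then 10.9 and 13.5 CPM (log2 fold change -1.91 ± 0.23, adjusted p = 0.00327). Both genes for handling acid were thus lower in each resistant library than in each sensitive one. SLC16A3 shares 482 bases of exon with CSNK1D on the opposite strand, a gene with a mean of 8832 counts.

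Secreted factors followed. ANGPTL4 measured 10.2 and 11.1 CPM in sensitive and 0.824 and 1.55 CPM in resistant libraries (log2 fold change -3.15 ± 0.35, adjusted p = 0.0026). ADM measured 14.4 and 9.49 CPM and then 1.75 and 1.19 CPM (log2 fold change -3.00 ± 0.36, adjusted p = 0.00354). STC2 went the opposite way, from 6.77 and 8.29 CPM to 24.8 and 40.6 CPM (log2 fold change 2.12 ± 0.30, adjusted p = 0.00726). Of these 3 genes, none had overlapping groups, which describes 2 libraries per group and adds no test.

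Smaller falls were found for P4HA1, a catalytic subunit of the collagen prolyl hydroxylase, with 99.9 and 101 CPM against 64.6 and 55 CPM (log2 fold change -0.74 ± 0.17, adjusted p = 0.0387), and for ANKRD37, a small ankyrin repeat protein. ANKRD37 measured 3.09 and 2.45 CPM against 1.2 and 0.94 CPM (log2 fold change -1.35 ± 0.41, adjusted p = 0.0953). Exons of ANKRD37 overlap those of UFSP2 on the opposite strand over 909 bases, and its call was lost without either library of NCI-H1581, as was that of P4HA1, and also without the second library of NCI-H1581R. P4HA2, the sister subunit of P4HA1, measured 41.1 and 33.3 CPM against 41.6 and 39.5 CPM (adjusted p = 0.7).

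The median log2 fold change in this line was -0.21 for the 18 glycolytic genes and -0.14 for the 18 other HIF target genes tested, or -0.26 without EGLN3, which had at most 4 counts in any library of this line. The median over all genes tested was 0.04. Without the second library of NCI-H1581R the median of the glycolytic genes was 0.03 and without the first it was -0.50, so its sign rested on 1 library. The median absolute log2 fold change was 0.34 for glycolytic genes, 0.66 for other HIF target genes and 0.42 for all genes.

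**Figure D1:**
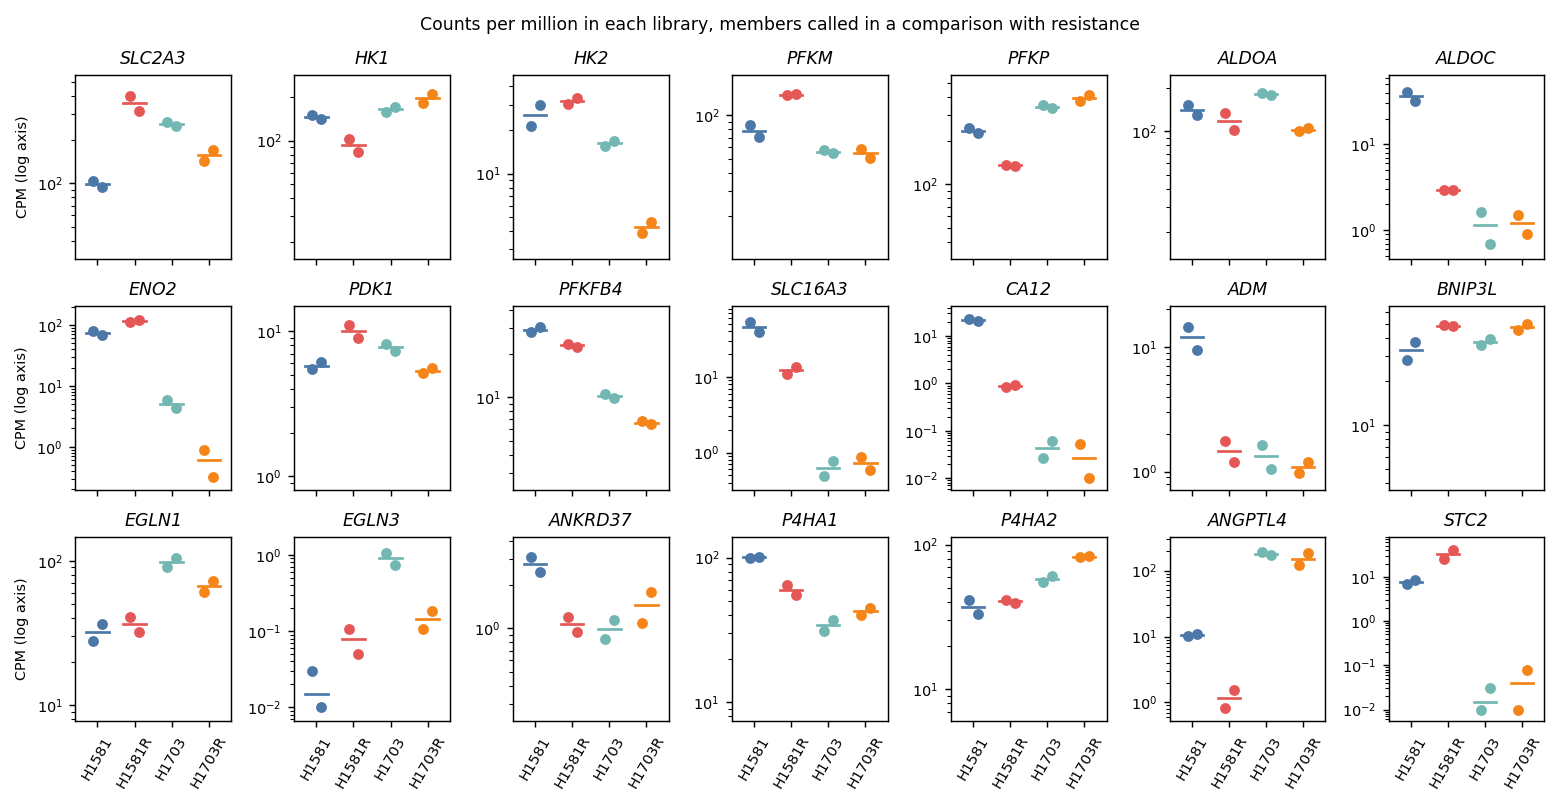
CPM (log axis) in each of the 8 libraries for the 21 members called in either line or in the comparison of the lines' changes. Points are libraries, lines are means of 2 replicates, and libraries with 0 counts are drawn at 0.01 CPM. CA12, ALDOC, ANGPTL4 and ADM drop in H1581R, whereas HK2, ENO2 and EGLN3 drop in H1703R.

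In NCI-H1703R most calls were of other members. When edgeR was fitted to each line without a block, 2 members, SLC2A3 and ENO2, were called in both lines. In the single fit of all 8 libraries PFKFB4 was also called in both, lower in each. ENO2 fell 8.19-fold, EGLN3, a HIF prolyl hydroxylase that is itself a HIF target, 6.00-fold and HK2 3.73-fold, and changes of ALDOA, SLC2A3, PFKFB4, EGLN1, P4HA2 and BNIP3L were under 2-fold. Of 36 members, 9 passed the threshold, 2 higher and 7 lower in NCI-H1703R. Over all genes tested 14.7% passed, 7.06% higher and 7.67% lower. The culture was repeated for the second replicate, and from this a shared round of same-numbered libraries was inferred. When the fit took the replicate number as a block 18 of 36 members passed, 6 higher and 12 lower. Of all genes 34.9% did, 18.2% higher and 16.7% lower.

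Among the glycolytic genes none rose by edgeR or DESeq2 (1 with an unadjusted p under 0.05), 4 fell and 14 did not pass. ENO2 measured 5.81 and 4.37 CPM in the libraries of NCI-H1703 and 0.899 and 0.317 CPM in those of NCI-H1703R, which is 34 and 12 counts (log2 fold change -3.03 ± 0.44, adjusted p = 0.0152). HK2 measured 15.6 and 16.8 CPM and then 3.91 and 4.59 CPM (log2 fold change -1.90 ± 0.17, adjusted p = 0.00313). ALDOA, which makes up most of the aldolase RNA, went from 184 and 178 CPM to 100 and 105 CPM (log2 fold change -0.79 ± 0.08, adjusted p = 0.00543). For these 3 enzymes neither resistant library reached the level of a sensitive one.

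SLC2A3 fell in this line, from 266 and 250 CPM to 142 and 170 CPM (log2 fold change -0.69 ± 0.11, adjusted p = 0.0192). SLC2A1 measured 14.1 and 11.4 CPM against 8.62 and 10.1 CPM. That difference did not pass (adjusted p = 0.211) but did with the replicate block (adjusted p = 0.0757). HK1 and PFKP, which fell in NCI-H1581R, were slightly higher here, at 157 and 171 CPM against 182 and 210 CPM for HK1 and at 352 and 334 CPM against 374 and 417 CPM for PFKP. Neither passed without the block (adjusted p = 0.184 for HK1 and 0.204 for PFKP), and both did with it (adjusted p = 0.00647 and 0.0232).

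Of the other HIF target genes 2 rose, 3 fell and 13 did not pass. The oxygen sensors were on the falling side. EGLN3 had 39 and 25 counts in NCI-H1703 and 4 and 7 counts in NCI-H1703R (log2 fold change -2.58 ± 0.63, adjusted p = 0.0628). EGLN1, the main HIF prolyl hydroxylase in most cells, measured 91.2 and 105 CPM and then 60.9 and 72.4 CPM (log2 fold change -0.53 ± 0.13, adjusted p = 0.0631). Their relative EGLN2, which is not among the 38, measured 105 and 100 CPM against 96.3 and 94.9 CPM and did not pass (adjusted p = 0.668).

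PFKFB4, an enzyme that makes and breaks down the phosphofructokinase activator fructose-2,6-bisphosphate, measured 10.5 and 9.84 CPM against 6.82 and 6.47 CPM (log2 fold change -0.58 ± 0.16, adjusted p = 0.0814). P4HA2 rose from 54.9 and 60.6 CPM to 81.8 and 83 CPM (log2 fold change 0.54 ± 0.10, adjusted p = 0.03). BNIP3L, a receptor that marks mitochondria for autophagy, rose from 35.6 and 39.4 CPM to 45.5 and 49.9 CPM (log2 fold change 0.38 ± 0.11, adjusted p = 0.0965). BNIP3L had the smallest change among the called members, and its call was lost with RLE normalisation, without a filter on low counts, in a single fit of all 8 libraries, with offsets for GC content and length, and with any 1 of the 4 libraries left out. In NCI-H1581R BNIP3L measured 28.2 and 37.4 CPM against 48.9 and 48.4 CPM, which did not pass (adjusted p = 0.139) but did, in the same direction as in NCI-H1703R, with the replicate block (adjusted p = 0.099) and with DESeq2 (adjusted p = 0.0984). The call of EGLN1 was lost in the single fit and with the offsets, and that of PFKFB4 with the offsets and with legacy dispersions. Leaving out any 1 of the 4 libraries also ended the calls of EGLN3 and PFKFB4. That of EGLN1 was lost for 3 of the 4 libraries. In the NCI-H1581 pair PFKFB4 measured 28.1 and 30.5 CPM against 23.4 and 22 CPM. That difference did not pass (adjusted p = 0.284) but did in the single fit.

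Of the acid-handling and secreted HIF targets that changed in NCI-H1581R, none was called in this line by edgeR or DESeq2 (0 with an unadjusted p under 0.05 by edgeR, and no adjusted p from DESeq2 for CA12 and STC2), and 4 were scarce. SLC16A3 had 18 to 33 counts in all 4 libraries and CA12 0 to 2 counts, ADM measured 0.978 to 1.62 CPM, and STC2 had 0 to 3 counts. ANGPTL4 was abundant, at 190 and 171 CPM in NCI-H1703 and 121 and 182 CPM in NCI-H1703R, and its groups overlapped (adjusted p = 0.54). The median log2 fold change in NCI-H1703R was -0.10 for glycolytic genes and 0.03 for other HIF target genes, against 0 for all genes. The median absolute log2 fold changes were 0.19, 0.44 and 0.29.

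Calls in this line rested on both sensitive libraries. Without the first library of NCI-H1703 only HK2 was called, and without the second none of the 36 was by edgeR (8 with an unadjusted p under 0.05), while 1.61% and 1.51% of all genes were called in those fits. With both of these libraries kept, DESeq2 called 10 members. No named member changed direction in any of them.

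**Figure D2:**
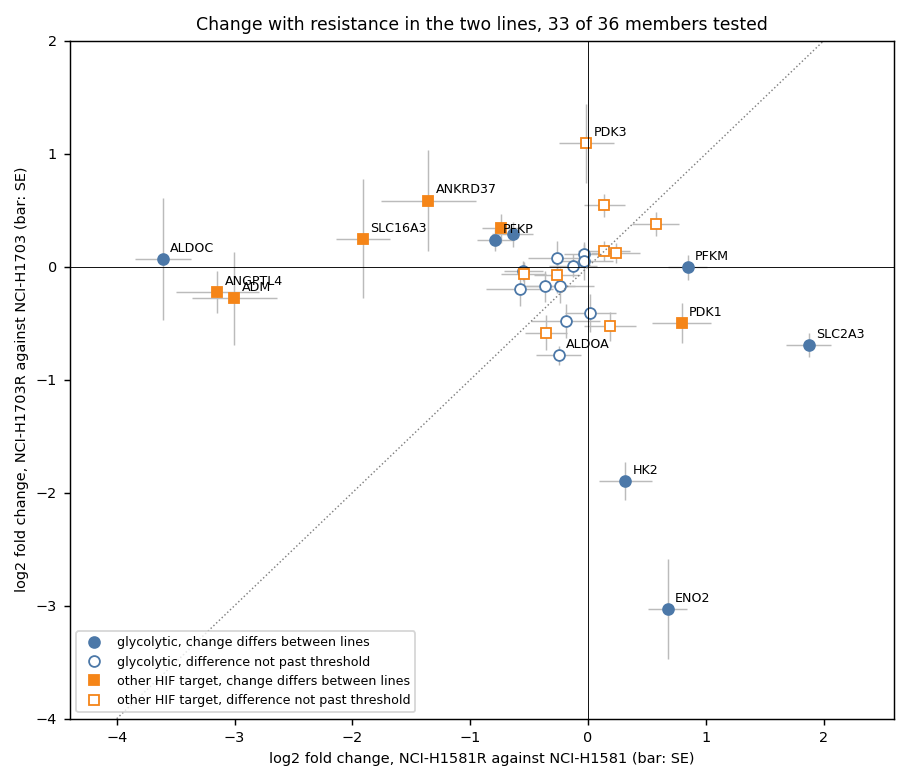
Log2 fold change of 33 of the 36 tested members in NCI-H1581R (horizontal axis) and in NCI-H1703R (vertical axis), with standard errors as bars, for glycolytic genes (circles) and other HIF target genes (squares). CA12, STC2 and EGLN3 are left out because 1 of the lines had under 10 counts in every library. Filled points mark the 13 members whose change differed between the lines, and the dotted line marks equal change in both.

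The changes in the lines were set against each other in a fit of all 8 libraries, with the difference taken as the change in NCI-H1703 minus the change in NCI-H1581. The difference passed for 13 of 36 members, 8 positive and 5 negative, and for 15.4% of all genes, 6.93% positive and 8.47% negative. With offsets for GC content and transcript length, 11 were positive and 5 negative. With them 16.7% of all genes passed. Of those calls over all genes 58.4% were positive, against 45% without the offsets. SLC2A3 and ENO2, the members called in both lines by the fits of each line without the block, rose in NCI-H1581R and fell in NCI-H1703R. PFKFB4, called in both lines only in the single fit, was lower in both. With the block HK1, PFKP and P4HA1 were also called in both lines, lower in NCI-H1581R and higher in NCI-H1703R, and BNIP3L was higher in both. Of all genes tested 615 were called in both lines, 299 in the same direction and 316 in opposite directions.

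The glucose transporter SLC2A3 differed by -2.58 ± 0.23 (log2, SE, adjusted p = 0.000273) and ENO2 by -3.73 ± 0.41 (adjusted p = 0.000938). HK2, which fell in NCI-H1703R and did not pass in NCI-H1581R, differed by -2.24 ± 0.28 (adjusted p = 0.00183). The hexokinases thus parted, since HK1 differed by 0.91 ± 0.20 in the other direction (adjusted p = 0.0235). The same was seen between phosphofructokinases, with -0.87 ± 0.19 for PFKM (adjusted p = 0.0223) and 1.0 ± 0.17 for PFKP (adjusted p = 0.0074).

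PDK1, a kinase that keeps pyruvate out of the mitochondrial citrate cycle by inhibiting pyruvate dehydrogenase, did not pass in either line by edgeR without the block. With the block it passed in NCI-H1703R (adjusted p = 0.0591), and in NCI-H1581R it was called by DESeq2 (adjusted p = 0.0989), in the single fit and with at least 10 counts required in every library. It measured 5.49 and 6.12 CPM in NCI-H1581, 11.1 and 8.97 CPM in NCI-H1581R, 8.22 and 7.27 CPM in NCI-H1703 and 5.16 and 5.57 CPM in NCI-H1703R. Its replicates did not overlap in either line, and the changes differed by -1.32 ± 0.29 (adjusted p = 0.0223), a call that was lost with the offsets for GC content and length (adjusted p = 0.152). Its paralogue PDK3 measured 11.4 and 10.7 CPM against 12.4 and 9.35 CPM in the NCI-H1581 pair. In the NCI-H1703 pair it measured 1.68 and 1.02 CPM against 3.04 and 2.64 CPM, a rise that passed with the block (adjusted p = 0.024) but not without it (adjusted p = 0.125). The difference of PDK3 between the lines did not pass in the main edgeR fit (adjusted p = 0.155). It did by DESeq2 (adjusted p = 0.0897), in edgeR with the offsets (adjusted p = 0.0809) and with at least 10 counts required in every library.

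The other HIF targets that fell in NCI-H1581R had positive differences, of 2.90 ± 0.41 for ANGPTL4 (adjusted p = 0.00326), 2.70 ± 0.63 for ADM (adjusted p = 0.0299), 2.14 ± 0.61 for SLC16A3 (adjusted p = 0.062), 1.92 ± 0.58 for ANKRD37 (adjusted p = 0.0749) and 1.06 ± 0.20 for P4HA1 (adjusted p = 0.0123). ALDOC, a glycolytic gene with 23 to 60 counts in the NCI-H1703 and NCI-H1703R libraries, differed by 3.65 ± 0.59 (adjusted p = 0.00591). For CA12, with at most 2 counts in any library of NCI-H1703 and NCI-H1703R, the difference did not pass by edgeR (adjusted p = 0.359) but did by DESeq2 (adjusted p = 0.028). With the replicate block within each line SLC16A3 no longer passed (adjusted p = 0.107). Leaving out single libraries ended the calls of ANKRD37 (6 of 8 libraries) and SLC16A3 (5 of 8) most often. Those of HK1 and PFKM were lost without the first library of NCI-H1703 or the second of NCI-H1703R, that of PDK1 without the first of NCI-H1703, and that of ADM without the second of NCI-H1703 or of NCI-H1703R.

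The enzymes of the later steps of glycolysis were abundant, and without the block none of the 7 was called by edgeR in either line or in the difference between them. Of 2413 genes at 100 CPM or more, 13.6% were called in NCI-H1581R, 19.6% in NCI-H1703R and 18.3% in that difference. Among the 7 enzymes 1 had an unadjusted p under 0.05, LDHA in NCI-H1703R, which DESeq2 also called. Without the first library of NCI-H1581R, however, 5 of them (TPI1, PGAM1, ENO1, PKM and LDHA) were called lower in NCI-H1581R. GAPDH, which oxidises glyceraldehyde 3-phosphate, measured 2898 and 2581 CPM in NCI-H1581, 3010 and 2313 CPM in NCI-H1581R, 8253 and 8680 CPM in NCI-H1703 and 8035 and 9140 CPM in NCI-H1703R. ENO1, the ubiquitous enolase, measured 4096 and 3466 CPM against 3851 and 2522 CPM in the NCI-H1581 pair and 3822 and 4105 CPM against 3121 and 3793 CPM in the NCI-H1703 pair. The spread between the libraries of NCI-H1581R was thus wider for ENO1 than the gap between the variants.

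LDHA measured 819 and 771 CPM in NCI-H1581, 896 and 489 CPM in NCI-H1581R, 527 and 602 CPM in NCI-H1703 and 346 and 445 CPM in NCI-H1703R. In NCI-H1703R both libraries were below both of NCI-H1703, by -0.48 ± 0.15 on the log2 scale, which did not pass (adjusted p = 0.116) but did with the replicate block (adjusted p = 0.00032) and with DESeq2 (adjusted p = 0.0066). PGAM1, the phosphoglycerate mutase, and PKM, the pyruvate kinase that makes the final pyruvate, passed with the block only. With it their log2 fold changes were -0.21 and -0.18 (edgeR, adjusted p = 0.0467 and 0.0852), and without it -0.20 ± 0.16 and -0.17 ± 0.13. TPI1 and PGK1 measured 735 to 1196 and 307 to 425 CPM in the NCI-H1581 pair and 1771 to 2137 and 321 to 365 CPM in the NCI-H1703 pair.

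Of the glycolytic genes not yet described, GPI, which turns glucose 6-phosphate into fructose 6-phosphate, measured 366 and 358 CPM in NCI-H1581 and 264 and 228 CPM in NCI-H1581R. That difference lay just outside the threshold (log2 fold change -0.55 ± 0.17, adjusted p = 0.101) and passed with the block (adjusted p = 0.09995) and with DESeq2 (adjusted p = 0.00848). GPI measured 327 to 355 CPM in the NCI-H1703 pair. All 18 glycolytic genes together took 1.41% and 1.31% of the counts in NCI-H1581, 1.36% and 1.09% in NCI-H1581R, 1.93% and 2.02% in NCI-H1703 and 1.80% and 1.99% in NCI-H1703R. The other 20 genes took 0.0503% to 0.0703% of the counts.

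The remaining other HIF targets passed in neither line when edgeR was fitted to each line, with the replicate block or without. BNIP3, a mitophagy receptor like BNIP3L, measured 82.1 to 122 CPM in the NCI-H1581 pair and 40 to 44.6 CPM in the NCI-H1703 pair. KDM3A, a histone demethylase, measured 50.4 to 74 CPM over all 8 libraries. HILPDA, a lipid droplet protein that slows lipolysis, measured 29.7 to 42.2 CPM and 9.49 to 11.5 CPM in the pairs. PFKFB3, the relative of PFKFB4 that favours making the activator, measured 34.2 and 39.5 CPM in NCI-H1581 and 23.1 and 27 CPM in NCI-H1581R, which did not pass (adjusted p = 0.139) but did with DESeq2 (adjusted p = 0.074) and in the single fit of all 8 libraries, and 130 to 155 CPM in the NCI-H1703 pair.

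Isozyme shares were computed from CPM per kilobase (RPKM), using the length of the canonical transcript, since levels of different genes compare only per length. They describe the levels above and carry no test. Of the RPKM of SLC2A1 and SLC2A3 together, SLC2A3 made 69.7% and 63.7% in NCI-H1581 and 87.5% and 88.3% in NCI-H1581R, and 93.6% to 95.1% in the NCI-H1703 pair. HK2 made 8.4% and 11.8% of the hexokinase RPKM in NCI-H1581, 15.8% and 20.4% in NCI-H1581R, 5.98% and 5.93% in NCI-H1703 and 1.36% and 1.38% in NCI-H1703R. The shares of HK2 thus separated all 4 variants.

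PFKP made 49.3% and 49.2% of the phosphofructokinase RPKM in NCI-H1581 and 30.9% and 32.9% in NCI-H1581R, whereas PFKM made 14.6% and 13.1% and then 26.6% and 29%. In NCI-H1581R the leading isozyme was PFKL, with 42.4% and 38%, and in the NCI-H1703 pair it was PFKP, with 59.5% to 64.2%. ALDOC made 21.5% and 20.1% of the aldolase RPKM in NCI-H1581 and 2.24% and 2.84% in NCI-H1581R, and at most 1.51% in the NCI-H1703 pair. ENO1 made at least 96.5% of the RPKM of ENO1 and ENO2 together in every library.

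**Figure D3:**
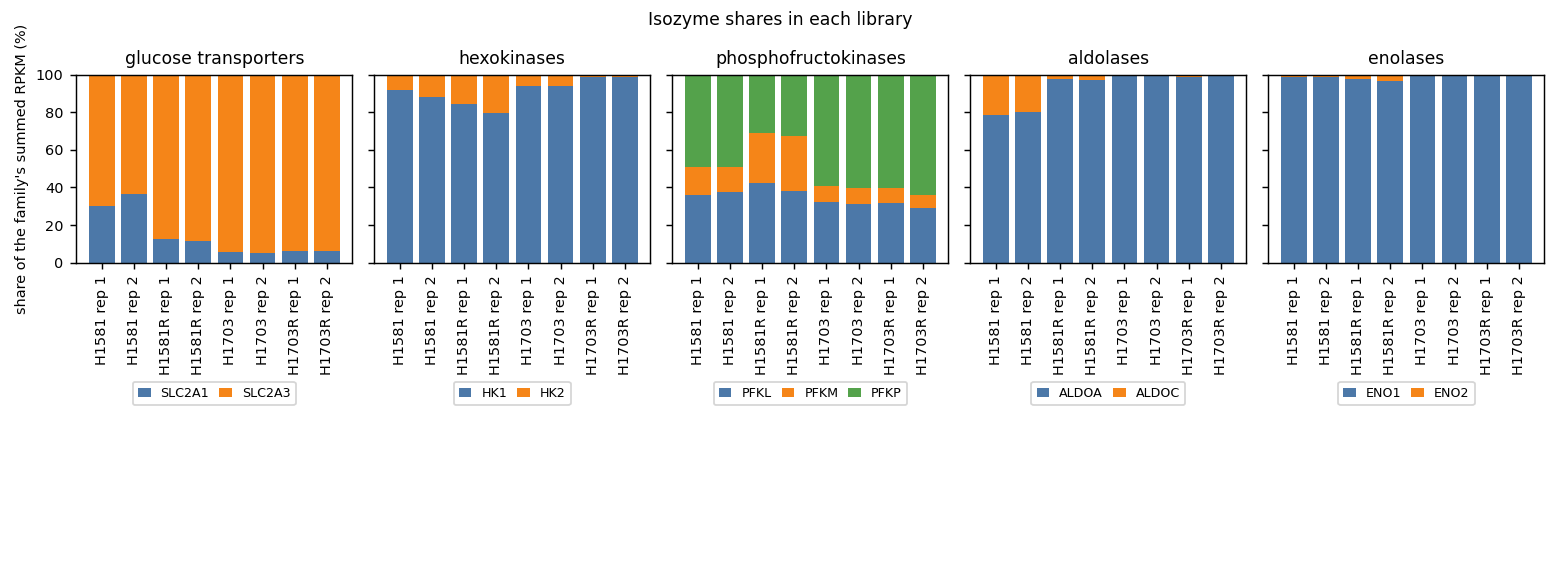
Share of the summed RPKM of the listed genes of each family (vertical axis, %) taken by each isozyme in the 8 libraries (stacked bars). SLC2A3 and PFKM take more and PFKP and ALDOC less in H1581R than in H1581, and HK2 takes less in H1703R than in H1703.

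The sensitive lines differed from each other for most genes, and 28 of 36 members passed, of which NCI-H1703 had the higher level of 10 and NCI-H1581 of 18. Over all genes tested 62.9% passed, 32.5% higher and 30.4% lower in NCI-H1703. Each line had its own medium, so line and medium cannot be told apart. The median absolute log2 difference was 1.77 for other HIF target genes, 0.48 for glycolytic genes and 0.94 for all genes tested, and with the 3 sparsest genes set at their counting bounds the signed median of the other HIF target genes was -1.34.

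ANGPTL4 was 16.9-fold higher in NCI-H1703, PFKFB3 4.10-fold, GAPDH 3.09-fold, EGLN1 3.04-fold and SLC2A3 2.61-fold (largest adjusted p of these 5 by edgeR 0.000119). GAPDH is widely used as a reference gene, and its level differed more between these lines than between either line and its resistant variant. SLC16A3 was 73.7-fold higher in NCI-H1581, ALDOC 30.8-fold, ENO2 14.3-fold, ADM 8.77-fold and PDK3 8.11-fold. The tissue-restricted isozymes ALDOC and ENO2 were thus both high in NCI-H1581. SLC2A1 was 3.43-fold higher in that line and HILPDA 3.84-fold.

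For 3 genes 1 of the lines had 1 to 3 counts in both libraries together. CA12 had 1615 counts in NCI-H1581 and 3 in NCI-H1703, a ratio of 504 per count sequenced (95% exact interval 172 to 2446, counting error only). STC2 had 560 counts against 1, a ratio of 524 (interval 93.7 to 20740), and EGLN3 had 64 counts in NCI-H1703 against 1 in NCI-H1581, a ratio of 68.4 (interval 11.8 to 2742). The fall of CA12 and the rise of STC2 in NCI-H1581R therefore had no counterpart in NCI-H1703 that these libraries could show.

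**Figure D4:**
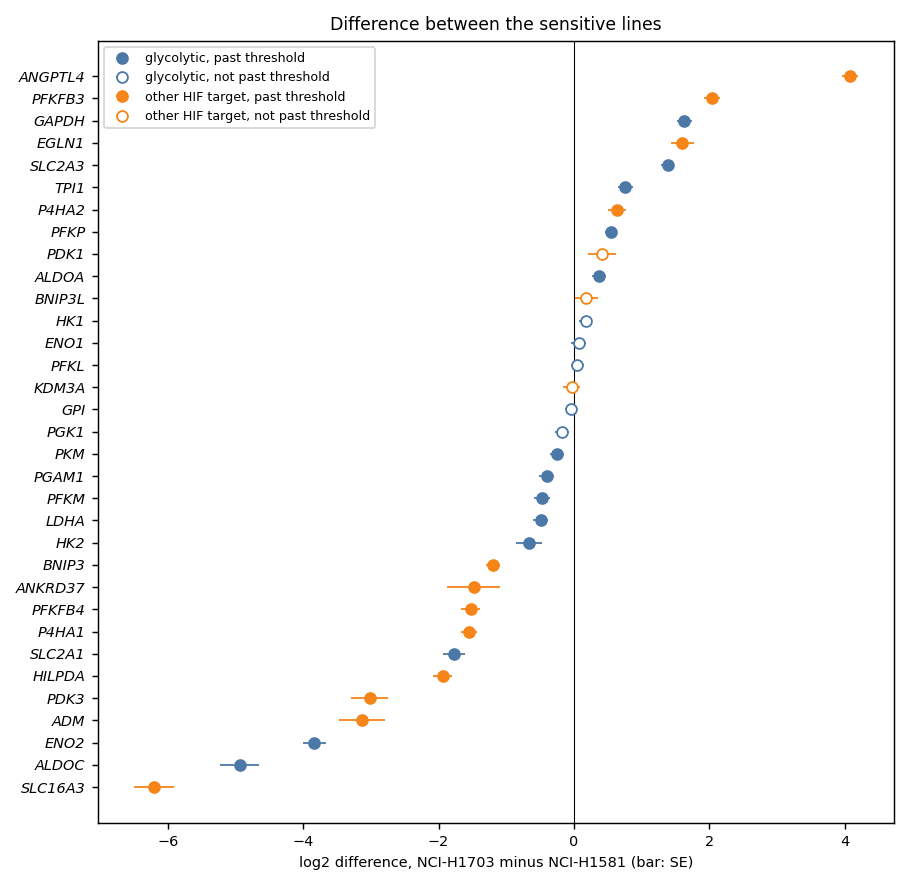
Log2 difference between the sensitive lines (NCI-H1703 minus NCI-H1581, horizontal axis) for 33 members, with standard errors as bars. Blue marks glycolytic genes, orange other HIF target genes and filled points those past the threshold. Other HIF target genes lie at both ends, from SLC16A3 at -6.20 to ANGPTL4 at 4.08, and most glycolytic genes lie near 0.

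The proteins that set HIF activity were read from a further list of 13 genes, of which 1 rose and 1 fell in NCI-H1581R. In NCI-H1703R 2 fell, and none rose by edgeR or DESeq2 (1 with an unadjusted p under 0.05). For this list and the further lists below, the share called over all genes tested was 15.1% in NCI-H1581R and 14.7% in NCI-H1703R. HIF1A, the alpha subunit found in most cells, rose in NCI-H1581R, from 126 and 147 CPM to 273 and 286 CPM (log2 fold change 1.04 ± 0.17, adjusted p = 0.0134). In the same libraries 9 members were called lower, CA12, ANGPTL4, ADM, SLC16A3 and ALDOC among them. The 4 called higher were SLC2A3, STC2, PFKM and ENO2. HIF1A measured 95 and 101 CPM in NCI-H1703 and 105 and 117 CPM in NCI-H1703R (adjusted p = 0.255), a difference that passed with the replicate block (adjusted p = 0.0322), as did that of ARNT2 (adjusted p = 0.0298). HIF1A protein, which oxygen controls, was not measured in these files.

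EPAS1, the alpha subunit also called HIF2A, was nearly confined to NCI-H1703 and its variant. It measured 97.2 and 86.4 CPM in NCI-H1703 and 13.6 and 17.7 CPM in NCI-H1703R (log2 fold change -2.52 ± 0.14, adjusted p = 0.000942), against at most 0.838 CPM in any library of NCI-H1581 or NCI-H1581R. The alpha subunit that fell in NCI-H1703R was thus not the one that rose in NCI-H1581R, and the changes differed between the lines for both (adjusted p = 0.0227 for EPAS1 and 0.0193 for HIF1A). CREBBP, a coactivator of HIFs, fell in NCI-H1703R by 0.41 ± 0.09 (adjusted p = 0.0495). ARNT measured 85.3 to 107 CPM and 136 to 160 CPM in the pairs and did not pass in either. VHL measured 11.2 and 17.7 CPM in NCI-H1581 and 12.8 and 34 CPM in NCI-H1581R. Like VHL, EGLN2 and HIF1AN, the asparaginyl hydroxylase that blocks HIF activity, did not pass in either line (adjusted p from 0.439 to 0.955).

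A further list held 30 other hypoxia genes, 29 of them in the table. In NCI-H1581R 2 rose and 7 fell, and in NCI-H1703R 7 rose and 3 fell. Over all genes tested 7.63% rose and 7.44% fell in NCI-H1581R, and 7.06% rose and 7.67% fell in NCI-H1703R. AK4, a mitochondrial adenylate kinase, fell in both lines, by 1.80 ± 0.24 in NCI-H1581R and by 0.69 ± 0.10 in NCI-H1703R on the log2 scale (adjusted p = 0.00494 and 0.0158). In NCI-H1581R the transcriptional repressor BHLHE40 fell by 1.70 ± 0.25 (adjusted p = 0.00757) and the histone demethylase KDM4C by 1.62 ± 0.19 (adjusted p = 0.0028). In NCI-H1703R IGFBP3, a binding protein of insulin-like growth factors, fell by 3.47 ± 0.27 (adjusted p = 0.00207), whereas PLOD2, a collagen lysyl hydroxylase, rose by 1.53 ± 0.17 (adjusted p = 0.00556) and GBE1, the glycogen branching enzyme, by 1.13 ± 0.12 (adjusted p = 0.00504). The median log2 fold change of the list was -0.05 in NCI-H1581R and 0.19 in NCI-H1703R.

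Around glycolysis, 17 further isozymes were listed and 10 tested, of which 1 rose in each line and none fell by edgeR or DESeq2 (0 with an unadjusted p under 0.05). BPGM, which makes the red cell regulator 2,3-bisphosphoglycerate, rose by 0.76 ± 0.20 in NCI-H1581R (adjusted p = 0.063), and PFKFB2, another relative of PFKFB3 and PFKFB4, rose by 0.86 ± 0.15 in NCI-H1703R (adjusted p = 0.025). Among 13 genes for the entry of pyruvate into mitochondria 1 fell in NCI-H1581R, and 1 rose and 1 fell in NCI-H1703R. MPC2, a subunit of the mitochondrial pyruvate carrier, fell by 1.13 ± 0.25 in NCI-H1581R (adjusted p = 0.0352), PDHA1, the pyruvate dehydrogenase subunit that PDK1 acts on, rose by 0.43 ± 0.08 in NCI-H1703R (adjusted p = 0.0352) and PDP1, the opposing phosphatase, fell by 0.43 ± 0.12 there (adjusted p = 0.0956).

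None of 7 pentose phosphate genes passed in NCI-H1581R by edgeR or DESeq2 (0 with an unadjusted p under 0.05). In NCI-H1703R TKT, the transketolase, rose by 0.63 ± 0.11 (adjusted p = 0.0243) and PGD, the 6-phosphogluconate dehydrogenase, fell by 0.33 ± 0.09 (adjusted p = 0.0814). Of 5 gluconeogenesis genes 2 were tested, and PCK2, the mitochondrial phosphoenolpyruvate carboxykinase, rose in both lines. It measured 60.4 and 66.7 CPM in NCI-H1581 and, 1.44 ± 0.17 higher on the log2 scale, 167 and 177 CPM in NCI-H1581R (adjusted p = 0.00287), and 91.2 and 81.1 CPM in NCI-H1703 and 162 and 157 CPM in NCI-H1703R (log2 fold change 0.92 ± 0.09, adjusted p = 0.00483). No library of a resistant variant overlapped one of its sensitive line. Both glucose-responsive targets of the MondoA transcription factor that were listed did not pass in either line by edgeR or DESeq2 (0 with an unadjusted p under 0.05).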

How the data were processed

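RNA of 8 libraries was measured by paired-end sequencing of 100 bases. The authors trimmed the reads (cutadapt), ran Salmon on the GRCh38 transcriptome and used tximport for gene-level values. What they deposited are estimated counts without normalisation, given as whole numbers. Tool versions, the transcript annotation and strandedness are not given in the sources used here. Samples were grouped by the cell line, variant and replicate number in the labels.

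The members and the further gene lists were chosen with earlier results of these data known. Genes with at least 10 counts in total were tested in edgeR 4.0.16 (R 4.3.3) with TMM normalisation and the two-sided quasi-likelihood test with adjusted dispersions, on the libraries of the groups compared, or of all 8 for the difference between the changes. Genes with an adjusted p (Benjamini-Hochberg, over all 18203 genes) under 0.1 were called, following the authors' threshold. The standard error is the log2 fold change divided by the square root of F. CPM values use TMM factors over all 8 libraries. Statements that groups overlap or not describe 2 libraries per group and carry no test. P-values measure the spread between 2 rounds of culture of each variant. Intervals of ratios cover counting error only.

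All 38 members are accounted for, and those called in either line or in the difference between lines are given by library. From each further list at most the 3 called genes with the largest change per line and a mean of at least 5 CPM there are named, and HIF1A, EPAS1, ARNT, VHL, EGLN2 and HIF1AN always. Positions, lengths and GC content are from GENCODE v44, promoters from RefSeq (GRCh38.p14).

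The labels state that the procedure was repeated for the second replicate, from which a pairing of same-numbered libraries within a line was inferred. Their deviations correlated with r = 0.16 in the NCI-H1581 pair and 0.417 in the NCI-H1703 pair over 13020 genes, and with r from -0.43 to -0.00708 across lines. No pair of replicates agreed within sampling noise. Alternatives were DESeq2 1.42.0, RLE normalisation, other filters, the replicate block, a single fit, a threshold of 0.05 and leaving out each replicate. Offsets for GC content and length and legacy dispersions were added after seeing the data. The fits were tested on simulated data.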

Additional observations from a re-analysis of the deposited data

Results flagged for a closer look

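The change with resistance differed between the lines for 13 genes by the interaction term of a joint fit (edgeR, adjusted p from 0.000273 to 0.0749). Each value is the log2 change in NCI-H1703 minus that in NCI-H1581. The negative values were -3.73 for ENO2, -2.58 for SLC2A3, -2.24 for HK2, -1.32 for PDK1 and -0.87 for PFKM. The positive values were 0.91 for HK1, 1.0 for PFKP, 1.06 for P4HA1, 1.92 for ANKRD37, 2.14 for SLC16A3, 2.70 for ADM, 2.90 for ANGPTL4 and 3.65 for ALDOC. Of these genes SLC2A3 and ENO2 were called in both lines without the replicate block, and HK1, PFKP and P4HA1 also with it, each in opposite directions.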

How the results depend on the processing

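Of the 13 members called in NCI-H1581R all stayed called with DESeq2, RLE normalisation, either other filter, the replicate block, the single fit of all 8 libraries and the offsets for GC content and length, and ANKRD37 was lost with legacy dispersions. For NCI-H1703R the count of 9 became 18 with the replicate block and 5 at an adjusted p under 0.05, and BNIP3L was lost with RLE normalisation, without a filter, in the single fit and with the offsets. EGLN1 was lost in the single fit and with the offsets, PFKFB4 with the offsets and with legacy dispersions, and EGLN3 dropped out with at least 10 counts required in every library. In the difference between the lines PDK1 was lost with the offsets and ANKRD37 with legacy dispersions. The block otherwise ended the calls of SLC16A3 in the difference between the lines and of PKM between the sensitive lines. The sign of the difference of PKM between the sensitive lines turned with the offsets, to 0.077 on the log2 scale. With either filter changed the median of the other HIF target genes moved, to -0.013 without a filter and -0.28 with at least 10 counts in every library in NCI-H1581R, and to 0.12 and 0.11 in NCI-H1703R, where the single fit gave -0.0021. With each replicate left out, members called numbered 7 to 22 in NCI-H1581R, 0 to 8 in NCI-H1703R, 8 to 16 in the difference and 26 to 30 between the sensitive lines. Medians ranged from -0.50 to 0.034 (glycolytic) and -0.31 to -0.048 (other HIF targets) in NCI-H1581R, and from -0.20 to -0.036 and -0.027 to 0.080 in NCI-H1703R. For each line and for the difference, calls over all genes tested rose and fell in the same fits as those of members. A variant left with 1 library was assumed to vary like the other. The causes of these moves were not tested. Counts under 10 limit CA12, STC2 and EGLN3, and genes below the filter cannot be judged at this depth.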
